A study of Homo sapiens with 36 samples.

Results

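Mitochondrial ribosomal protein genes were followed in 36 libraries of 2 human melanoma cell lines, 501mel and IGR37. Members were the gene symbols made of MRPL or MRPS and a number, with or without a letter A, B or C. The rule found 75 genes in both deposited tables, 47 MRPL and 28 MRPS, among 13364 genes of the first table and 13066 of the second. Each line had 6 groups of 3 libraries: the solvent DMSO, the SCD inhibitor labelled SCDi_A93 at 1 uM, the control siRNAs siCTR_1 and siCTR, and the SCD siRNAs siSCD_1 and siSCD_2. The siRNAs were used at 20 nM, every group was taken at 48 h, and all cells grew in RPMI with 10% FBS. SCD is stearoyl-CoA desaturase, which places a double bond in saturated fatty acids, and the title of the series joins it to MITF, the master regulator of melanocyte genes. The first table held the DMSO, SCDi_A93, siCTR and siSCD_2 libraries and the second the siCTR_1 and siSCD_1 libraries, so each agent was compared with its control within 1 table. The labels do not say that libraries of a group came from separate cultures, so p-values measure the spread between these libraries.

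The mitochondrial ribosome translates the mRNAs encoded by mitochondrial DNA, which give hydrophobic core subunits of the respiratory chain. Its ribosomal RNAs are made in the organelle, while its proteins are encoded in the nucleus, made in the cytosol and imported, so that a large set of nuclear mRNAs supplies 1 particle. Some of these proteins descend from bacterial ribosomal proteins and others were added during the evolution of mitochondria. In melanoma, MITF is known to drive oxidative metabolism through PPARGC1A, a coactivator of mitochondrial genes.

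Recovered gene reads ran from 4078450 to 6685898 per library in the first table and from 2402788 to 7483010 in the second. The members took 14704 to 63034 of these, and every member had a mean log2 level of at least 3 in each table, so none was near the floor. Levels below are log2 CPM, the log2 of reads scaled to library size, and changes are differences of group means on that scale, tested with limma with Benjamini-Hochberg adjustment over all genes of the table at an adjusted p under 0.05. The targeted mRNA, SCD, fell by 2.85 and 2.67 with siSCD_1 and by 4.33 and 4.15 with siSCD_2 in 501mel and IGR37. With the inhibitor, which acts on the protein, SCD changed by 0.29 in 501mel (adjusted p = 0.573, limma) and rose by 0.63 in IGR37 (adjusted p = 0.00215). The IGR37 siSCD_2 libraries stood apart from one another: the chi-square per degree of freedom of their reads over genes was 9.37 to 26.7 between their 3 pairs, against 1.90 to 6.52 over the 33 pairs within the other 11 groups. The fit pools the spread of all groups, so SEs and p-values for IGR37 siSCD_2 can understate the spread of its own libraries. All 7 melanocyte lineage markers were present, at group means of 6.06 or more. Of 20 epithelial, fibroblast, blood and endothelial markers, 7 were in the first table and 5 in the second, and no list of them passed 280 reads summed over the 3 libraries of a group. The fibroblast markers COL1A1, DCN and LUM summed to 240 reads in IGR37 DMSO and 58 in IGR37 SCDi_A93. COL1A1 had 0 reads in the latter group, and their part in the inhibitor result was not tested.

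The 75 genes together took a smaller share of the reads after SCD knockdown in both lines, and after the inhibitor in IGR37 alone. In 501mel their share of gene reads was 0.966% ± 0.0217 (SD, n = 3) with DMSO and 0.983% ± 0.0131 with the inhibitor, and these libraries overlapped. In IGR37 it was 0.786% ± 0.0251 with DMSO and 0.618% ± 0.0099 with the inhibitor, a change of -21.4%. With siSCD_1 the share went from 0.967% ± 0.0077 to 0.775% ± 0.0026 in 501mel and from 0.791% ± 0.0053 to 0.609% ± 0.0118 in IGR37. These changes of -19.8% and -23.0% separated the treated from the control libraries in both lines. With siSCD_2 the share went from 0.975% ± 0.0200 to 0.895% ± 0.0104 in 501mel, and from 0.765% ± 0.0198 to 0.680% ± 0.0333 in IGR37. Those changes of -8.22% and -11.2% were smaller, and here too no treated library reached a control. The spike-in RNAs, which are left out of these shares, took more of the reads in the same knockdowns: 3.76 to 4.29% with siCTR_1 and 5.13 to 5.71% with siSCD_1 in 501mel, 3.81 to 5.08% with siCTR and 5.16 to 6.96% with siSCD_2 there, and 4.35 to 4.83% and 5.05 to 7.21% in IGR37. With siSCD_1 and with the inhibitor in IGR37 the spike-in shares of treated and control libraries overlapped (4.58 to 5.50% against 4.0 to 4.75%, and 4.30 to 4.83% against 3.76 to 4.59%). With the inhibitor in 501mel they also overlapped, at 2.43 to 3.61% against 3.57 to 4.37%, and the mean was lower, 3.14% against 4.01% with DMSO. The part of the spike-ins in the member results was not tested. No test was run on this sum over members. In such bulk libraries, fewer cells of a kind and less RNA per cell cannot be told apart.

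**Figure D1:**
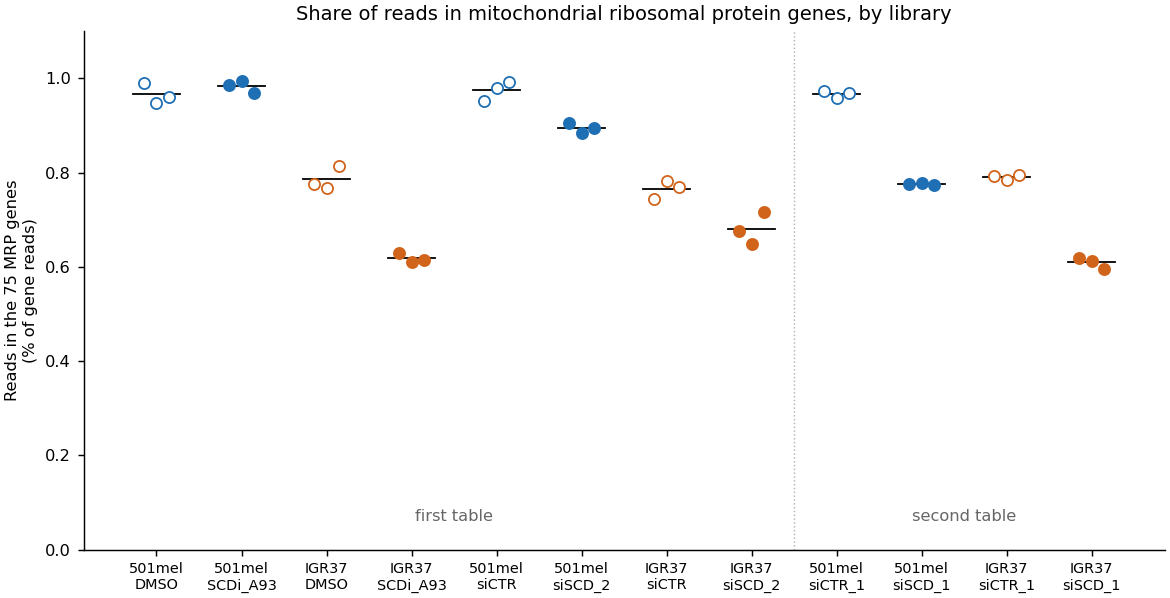
Share of gene reads taken by the 75 mitochondrial ribosomal protein genes in each library (vertical axis, percent), by group (horizontal axis), with 501mel in blue and IGR37 in orange, open points for controls, and lines at the group means. The treated libraries lie under their controls in every pair except SCDi_A93 in 501mel, where the groups overlap at 0.947 to 0.995%.

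Member by member, 5 of the 6 comparisons held falls of many genes. The inhibitor called 0 members in 501mel, where an unadjusted p under 0.05 was reached by 4 members above their control and by 0 below it. limma on the recovered reads with voom weights also called 0 in both directions. Over all genes of that comparison, 0.232% were called higher and 0.0599% lower. In IGR37 the inhibitor lowered 37 members and raised 4, against 23.1% of all genes lowered and 20.9% raised. siSCD_1 lowered 44 and raised 4 in 501mel, against 22% and 20.9% of all genes, and lowered 48 and raised 1 in IGR37, against 19.4% and 16.7%. siSCD_2 lowered 31 and raised 10 in 501mel, where 19.5% of all genes fell and 18.3% rose. In IGR37 siSCD_2 lowered 26 and raised 16, with 22.7% and 23.2% of all genes in those directions. Without 1 of its siSCD_2 libraries, which stood apart from one another, these counts were 20 and 13 (the first left out), 22 and 19 (the second) and 26 and 12 (the one whose column is numbered 3). The shares of all genes called without these libraries were not counted.

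Falls therefore took 49.3%, 58.7%, 64.0%, 41.3% and 34.7% of the members in the 5 comparisons with calls. Rises took 5.33%, 5.33%, 1.33%, 13.3% and 21.3% of them, under the share over all genes each time. The median change of the 75 was -0.29 for the inhibitor in IGR37, -0.41 and -0.40 for siSCD_1 and -0.15 and -0.09 for siSCD_2 in 501mel and IGR37, while the median over all genes lay between -0.01 and 0.01. Below 0 lay 63, 58, 66, 52 and 44 of the 75. The treated and control libraries did not overlap for any of the 37, for any of the 44, for 47 of the 48, for 29 of the 31 and for 21 of the 26 members lowered. Over all genes lowered in these comparisons the groups were separate for 97.1%, 97.0%, 96.7%, 93.6% and 88.6%, so such separation is not particular to the members. Most falls were modest: 3, 8, 1, 1 and 6 members fell by at least 1 log2 unit.

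**Figure D2:**
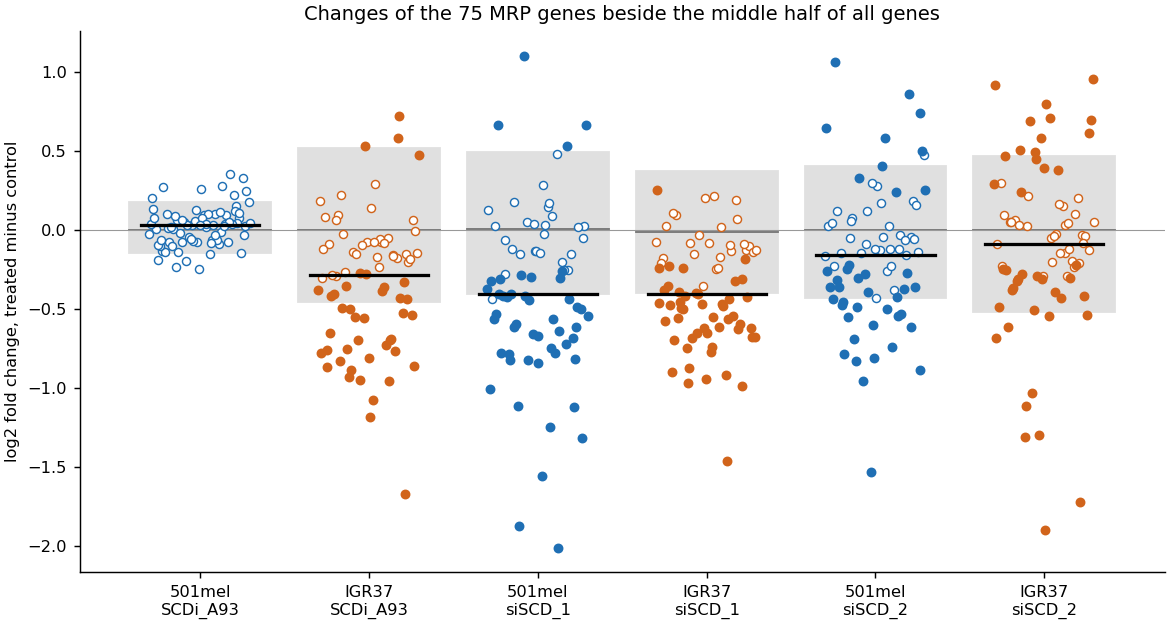
Change of each of the 75 members in the 6 comparisons of treated with control libraries (log2 fold change, one column of points per comparison, filled where the adjusted p was under 0.05, with a black line at the members' median and a grey box with a grey line from the lower to the upper quartile and at the median of all genes). Points sit mostly below 0 except for SCDi_A93 in 501mel, whose median is 0.03, and the siSCD_2 columns reach farthest above 0 for the number of filled points, with 10 and 16 rises.

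10 members fell in all 5 of those comparisons: MRPL3, MRPL4, MRPL11, MRPL12, MRPL37, MRPL57, MRPS11, MRPS12, MRPS26 and MRPS34. They come from both subunits and from both old and added proteins. How many of all genes fell in all 5 comparisons was not counted. MRPL12 sits in the stalk of the large subunit, which recruits the translation factors, and is also known to bind the mitochondrial RNA polymerase. Its gene lies on chromosome 17 from 81703357 to 81707526 (GRCh38, GENCODE 29). In IGR37 its level was 7.16, 7.16 and 7.40 with DMSO and 5.69, 5.38 and 5.62 with the inhibitor. The inhibited libraries were all more than 1 log2 unit under the controls, a fall of 1.67 ± 0.23 (SE; adjusted p = 1.29e-06, limma) or 3.19-fold. In 501mel the levels of 6.50, 6.81 and 6.56 with DMSO and 6.79, 6.87 and 6.69 with the inhibitor overlapped, with a change of 0.15 ± 0.23.

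Knockdown lowered MRPL12 in both lines. With siSCD_1 it went from 7.44, 7.0 and 7.11 to 6.32, 6.04 and 5.83 in 501mel, a fall of 1.12 ± 0.14 (adjusted p = 1.39e-05, limma). In IGR37 it went from 6.99, 7.12 and 7.13 to 6.34, 6.15 and 5.79, a fall of 0.99 ± 0.14. With neither line did the siSCD_1 libraries reach a control. With siSCD_2 in IGR37, 6.52, 7.04 and 7.28 became 5.28, 5.83 and 4.57, a fall of 1.72 ± 0.23 (adjusted p = 9.29e-07) with separate groups. Over the other settings run, the adjusted p of this fall reached 0.0119 (limma). In 501mel the siSCD_2 libraries, at 6.41, 6.23 and 6.42, were under controls of 7.55, 6.68 and 6.68, a fall of 0.61 ± 0.23 (adjusted p = 0.0355). That last call rested on single libraries: without the first siCTR library, the high one, the change was -0.32 (adjusted p = 0.293), and without any 1 of the 3 siSCD_2 libraries it ranged from -0.65 to -0.55 with an adjusted p of at most 0.107.

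MRPL4, a bacterial-type protein of the large subunit, is encoded on chromosome 19 from 10251901 to 10260045. With DMSO its IGR37 levels were 7.32, 7.25 and 7.44, and with the inhibitor 6.26, 6.50 and 6.47, a fall of 0.93 ± 0.13 (adjusted p = 1.92e-06, limma). The 501mel libraries, 6.58, 6.71 and 6.58 with DMSO and 6.71, 6.59 and 6.52 with the inhibitor, overlapped. siSCD_1 took it from 7.36, 6.95 and 7.24 to 6.12, 6.16 and 5.93 in 501mel and from 7.25, 7.36 and 7.33 to 6.59, 6.89 and 6.23 in IGR37, with no overlap in either line. The falls were 1.11 ± 0.14 and 0.75 ± 0.14. siSCD_2 took it from 6.81, 6.71 and 6.53 to 6.0, 5.71 and 5.84 in 501mel and from 7.13, 7.37 and 7.40 to 5.95, 6.38 and 5.63 in IGR37. Both pairs of groups were apart, with falls of 0.83 ± 0.13 and 1.31 ± 0.13 (adjusted p = 1.41e-05 and 8.64e-09).

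MRPL37, a protein of the large subunit that bacteria lack, gave the largest siSCD_2 fall in 501mel. Its levels of 7.51, 7.52 and 7.53 with siCTR became 6.29, 5.74 and 5.93, a fall of 1.53 ± 0.11 (adjusted p = 4.8e-11, limma) or 2.89-fold. In IGR37, 7.67, 7.97 and 7.90 became 6.66, 6.62 and 6.36, a fall of 1.30 ± 0.11, and the groups were apart in both lines. The other 3 falls of MRPL37 were 0.56, 0.66 and 0.47 for the inhibitor in IGR37 and siSCD_1 in 501mel and IGR37. Its gene, on chromosome 1 from 54184041 to 54225464, shares its last exon with SSBP3 on the opposite strand, and whether the counting used strand is not stated in the sources used here.

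MRPS11, a conserved protein of the small subunit platform, fell by 0.73, 0.78, 0.48, 0.74 and 0.43 in the 5 comparisons. In IGR37 its levels were 6.27, 6.36 and 6.55 with DMSO against 5.76, 5.53 and 5.71 with the inhibitor, and in 501mel 6.36, 6.26 and 6.28 with siCTR_1 against 5.49, 5.51 and 5.56 with siSCD_1. Neither pair overlapped. MRPS12, at the decoding centre of the small subunit and the site of classical streptomycin resistance in bacteria, fell by 0.76, 0.59, 0.41, 0.69 and 0.28. Its IGR37 siCTR libraries, at 7.35, 7.57 and 7.43, overlapped the siSCD_2 libraries at 7.10, 7.39 and 7.01, and that call (adjusted p = 0.0225, limma) was lost without any 1 of 3 libraries. The change was -0.22 without the second siCTR library and -0.25 and -0.20 without the first siSCD_2 library and the one whose column is numbered 3, with an adjusted p of at most 0.125.

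MRPS26 and MRPS34 are small subunit proteins added in mitochondria. MRPS26 fell from 8.40, 8.11 and 8.16 to 6.45, 6.37 and 6.23 with siSCD_1 in 501mel, 1.87 ± 0.17 or 3.66-fold (adjusted p = 4.16e-07, limma), with groups far apart. Its other falls were 0.50 with the inhibitor, 0.97 with siSCD_1 and 1.11 with siSCD_2 in IGR37, and 0.49 with siSCD_2 in 501mel. MRPS34 fell by 0.78, 1.00, 0.46, 0.26 and 0.68. The remaining 3 members of the 10 moved less: MRPL3 fell by 0.23 to 0.42, MRPL11 by 0.22 to 0.49 and MRPL57 by 0.22 to 0.63.

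The calls of MRPL4, MRPL37, MRPS11 and MRPS26 held in all 5 comparisons under every setting run. Of the other 6, single libraries ended the siSCD_2 call in 501mel for MRPL11 (without any of 5 of the 6 libraries compared, changes of -0.27 to -0.18 over all 6), MRPS34 (without 4 of 6, -0.33 to -0.21) and MRPL57 (without the third siSCD_2 library, -0.21). They also ended the siSCD_2 call in IGR37 for MRPL57 (without 4 of 6, -0.27 to -0.15) and the siSCD_1 call in IGR37 for MRPL3. MRPL3 changed there by -0.21 without the second siCTR_1 library and by -0.17 without the first siSCD_1 library.

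**Figure D3:**
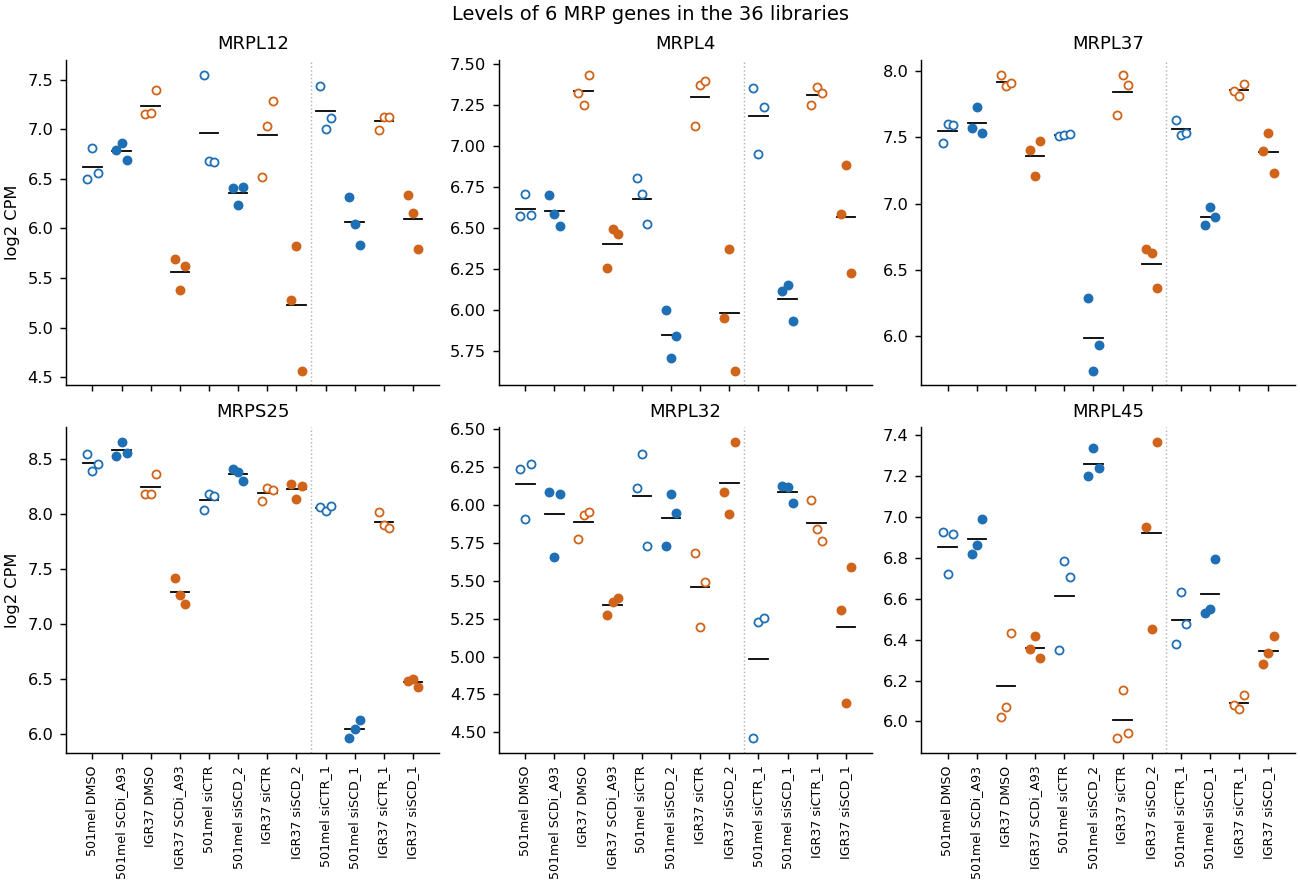
Level of selected members in every library (log2 CPM, vertical axis) by group (horizontal axis), with 501mel in blue, IGR37 in orange and open points for controls. MRPL12 in IGR37 drops from 7.16 to 7.40 with DMSO to 5.38 to 5.69 with SCDi_A93, while its 501mel libraries with these agents overlap.

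The promoters of these genes differ in which binding motifs of mitochondrial gene regulators they hold, and 5 are shown as examples of each motif and of none. The RefSeq promoter table (GRCh38.p14) held 67 of the 75 members, each with 250 bases before and 50 after the gene start. Motifs of GABP and related ETS factors (CCGGAAG or CGGAAGT), of YY1 (AAGATGGCG) and the core of the NRF1 site (GCATGCGC) were searched on both strands. The sequences run 5′ to 3′ on the strand of the gene and end just before its RefSeq start, and capitals mark the motif letters. MRPL3 lies at chr3:131502972-131503091 on the minus strand, and its capitals join the overlapping CCGGAAG and CGGAAGT. MRPS34 (chr16:1773135-1773254, minus strand) holds ETS letters in 3 separate runs, all read on the reverse strand. MRPS26 (chr20:3045932-3046051, plus strand) holds CCGGAAG on the reverse strand. MRPL32 (chr7:42932126-42932375, plus strand) is shown over 250 bases because its YY1 and NRF1 letters, both on the reverse strand, lie far apart. MRPL45 (chr17:38297048-38297167, plus strand) holds none of the 4 in the stretch shown.
MRPL3: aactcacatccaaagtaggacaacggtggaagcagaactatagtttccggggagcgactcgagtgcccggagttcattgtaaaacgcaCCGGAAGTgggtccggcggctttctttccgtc
MRPS34: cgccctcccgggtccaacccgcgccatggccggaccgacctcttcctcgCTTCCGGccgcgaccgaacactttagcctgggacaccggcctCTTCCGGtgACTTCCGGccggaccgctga
MRPS26: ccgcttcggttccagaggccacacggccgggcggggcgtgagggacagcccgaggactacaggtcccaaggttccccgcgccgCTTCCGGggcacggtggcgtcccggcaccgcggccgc
MRPL32: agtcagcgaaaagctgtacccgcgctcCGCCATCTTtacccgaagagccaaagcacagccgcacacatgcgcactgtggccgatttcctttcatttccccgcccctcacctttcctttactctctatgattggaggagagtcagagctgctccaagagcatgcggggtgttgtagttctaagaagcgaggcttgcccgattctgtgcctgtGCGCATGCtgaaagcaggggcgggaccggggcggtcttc
MRPL45: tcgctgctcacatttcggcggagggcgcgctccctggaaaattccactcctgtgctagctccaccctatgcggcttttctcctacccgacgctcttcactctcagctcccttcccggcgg

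ETS letters stood in 43.3% of the 67 member promoters, against 22.8% of the 9957 promoters of genes in the first table and 13% of all 27305. The YY1 word was in 17.9% of the member promoters, against 4.05% and 1.85%, and the NRF1 core in 8.96%, against 5.50% and 3.27%. At least 1 of the 4 words was in 56.7%, 29.4% and 16.7%. The share with ETS letters was 42.1% among the 38 members with a promoter that were lowered in 3 or more comparisons and 44.8% among the other 29. The YY1 word was in 7.89% of those 38 and 31.0% of those 29. Of the 10 members lowered in all 5 comparisons, 4 (MRPL3, MRPS12, MRPS26 and MRPS34) hold at least 1 of the words and 6 (MRPL4, MRPL11, MRPL12, MRPL37, MRPL57 and MRPS11) hold none. Of the 10 never lowered that have a promoter in the table, 6 (MRPL30, MRPL50, MRPL53, MRPL54, MRPS22 and MRPS31) hold at least 1 and 4 hold none. These are matches of letters, given as a description with no test.

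The inhibitor moved members in IGR37 and called 0 in 501mel (limma, with 4 at an unadjusted p under 0.05). In IGR37, after MRPL12, the largest falls among members with separate groups were those of MRPL28, MRPL41, MRPS25 and MRPL20. MRPL28, a conserved large subunit protein, fell by 1.18 ± 0.33 (adjusted p = 0.00545, limma), from 6.09, 5.92 and 6.15 to 5.05, 4.86 and 4.70. MRPL41, a large subunit protein that also has a described role in cell death, fell by 1.08 ± 0.13 (adjusted p = 1.9e-07), from 7.81, 7.66 and 7.89 to 6.68, 6.71 and 6.73. All inhibited libraries of both genes were under all controls.

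MRPS25, a small subunit protein without a bacterial counterpart, fell by 0.96 ± 0.08 (adjusted p = 2.31e-10, limma), from 8.19, 8.19 and 8.36 to 7.42, 7.27 and 7.18. MRPL20, a bacterial-type protein of the large subunit, fell by 0.95 ± 0.10, from 8.15, 7.99 and 8.18 to 7.24, 7.17 and 7.06. The changes of these 4 in 501mel were 0.26, 0.09, 0.11 and 0.03, and none passed the test. The 4 members that rose in IGR37 were MRPL2 by 0.72 ± 0.15, MRPS31 by 0.58 ± 0.16, MRPS22 by 0.53 ± 0.15 and MRPS18B by 0.47 ± 0.08 (adjusted p between 1.95e-05 and 0.00584). MRPL2 sits near the catalytic centre of the large subunit, and its levels went from 5.0, 4.86 and 5.19 to 5.94, 5.69 and 5.59 with no overlap. MRPS31 has copies elsewhere in the genome, and the row of its pseudogene MRPS31P5 changed by 1.70 in the same comparison, so reads shared between them cannot be set apart here.

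siSCD_1 gave its largest fall in MRPS25 in both lines, followed by MRPS26 in 501mel and MRPL12 in IGR37. MRPS25 went from 8.07, 8.03 and 8.07 to 5.96, 6.04 and 6.12 in 501mel, a fall of 2.01 ± 0.07 or 4.04-fold (adjusted p = 1.67e-11, limma). In IGR37 it went from 8.02, 7.91 and 7.87 to 6.48, 6.50 and 6.42, a fall of 1.46 ± 0.07 or 2.76-fold. The libraries of each group lay close together and the groups were far apart. With siSCD_2 MRPS25 rose by 0.24 ± 0.08 in 501mel (adjusted p = 0.0161) and changed by 0.03 in IGR37. The 501mel rise was lost without the first siCTR library (0.19, adjusted p = 0.084) or the first siSCD_2 library (0.22, adjusted p = 0.0552).

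After MRPS25 and MRPS26, the largest 501mel falls with siSCD_1 were those of MRPL41 (1.56 ± 0.12), MRPS27 (1.32 ± 0.11) and MRPL10 (1.25 ± 0.10), and the largest in IGR37, after MRPS25, MRPL12 and MRPS26, those of MRPS6 (0.95 ± 0.11) and MRPL39 (0.92 ± 0.31, adjusted p = 0.032, limma). The MRPL39 fall was lost without any of 5 of the 6 libraries (-1.30 to -0.46 over all 6), the smallest without the second siSCD_1 library. MRPL10 holds the stalk proteins to the large subunit and went in 501mel from 5.92, 5.90 and 6.03 to 4.56, 4.79 and 4.76. MRPS27 belongs to the small subunit and carries RNA-binding repeats of the PPR kind. The 5 rises, MRPL32 (1.10 ± 0.21), MRPL33 (0.67 ± 0.16), MRPL50 (0.66 ± 0.15) and MRPS31 (0.53 ± 0.16) in 501mel and MRPL45 (0.25 ± 0.09) in IGR37, had an adjusted p between 0.000499 and 0.0408. That of MRPS31 was lost without the second siCTR_1 library (0.35, adjusted p = 0.0887) or the second siSCD_1 library (0.48, adjusted p = 0.059), and that of MRPL45 without any of 5 of the 6 libraries (0.22 to 0.29 over all 6). In 501mel siSCD_1 also raised the markers LUM of fibroblasts, CDH1 of epithelia and VWF of endothelia, and the lists they belong to summed to 35, 41 and 1 reads with siCTR_1 and 56, 55 and 4 reads with siSCD_1. Their part in these results was not tested.

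A 7-base word, GCTTCCT, had been tied to siSCD_1 in earlier work on these libraries, and it stood in the 3′ UTR of 5 members. These were MRPL10, MRPL19, MRPS2, MRPS25 and MRPS26, or 6.67% of the 75, against 16.5% of all genes with a UTR. Their median change with siSCD_1 was -1.25 in 501mel and -0.70 in IGR37, against -0.35 and -0.39 for the other 70 members. As the word was tied to siSCD_1 in these same libraries, the siSCD_1 medians are no separate test of it, and they rest on 5 genes. Over all genes the medians were -0.12 and -0.10 with the word and 0.03 and 0.00 without it. With siSCD_2 the same 5 members also had the lower median, -0.45 in 501mel and -0.32 in IGR37 against -0.14 and -0.08, although over all genes the medians were 0.01 and 0.02 with the word and -0.01 and 0.00 without it. With the inhibitor in IGR37 the medians of the 5 and of the other 70 were -0.29 and -0.28. Among the 70 members without the word, 40 fell with siSCD_1 in 501mel and 43 in IGR37, or 57.1% and 61.4%. Of all genes without the word, siSCD_1 lowered 21.3% in 501mel and 18.9% in IGR37. The part of the word in the member falls was not tested.

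siSCD_2 moved members in both directions. With only the groups compared in the fit, its IGR37 counts were 13 falls and 8 rises, and its 501mel rises numbered 6 without the first siCTR library or the first siSCD_2 library. How many of all genes were called under these settings was not counted. The IGR37 median of -0.09 was -0.20 without the library whose column is numbered 3. After MRPL37, its largest 501mel falls with separate groups were those of MRPS18A (0.96 ± 0.11), MRPL17 (0.89 ± 0.09), MRPL4 and MRPL49 (0.81 ± 0.15, adjusted p = 0.000114, limma). MRPL17, a bacterial-type large subunit protein, went from 6.84, 6.82 and 6.75 to 5.89, 5.96 and 5.91, with groups far apart. In IGR37 the largest were those of MRPL28, MRPL12, MRPL4, MRPL37 and MRPS26. MRPL28 went there from 5.73, 5.82 and 6.09 to 4.13, 5.08 and 2.72, a fall of 1.90 ± 0.33 (adjusted p = 4.74e-05). That SE pools the spread of all groups, while the siSCD_2 values of this gene lay far apart. With only the groups compared in the fit, 21 of the member calls in IGR37 held and 21 were lost. The library whose column is numbered 3 had the lowest value of its group for both MRPL28 and MRPL12, and the groups were apart for both genes. In this comparison KRT18 of epithelia and DCN of fibroblasts rose and COL1A1 of fibroblasts fell, and the lists went from 27 to 15 and from 229 to 280 reads, with COL1A1 at 0 with siSCD_2. Their part was not tested.

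The members raised by siSCD_2 in 501mel were led by MRPL50 (1.07 ± 0.19), MRPL36 (0.86 ± 0.16), MRPS27 (0.74 ± 0.09), MRPL45 (0.65 ± 0.15) and MRPL34 (0.58 ± 0.13), with an adjusted p of at most 0.00137 (limma). MRPL50 went from 3.68, 3.99 and 4.08 to 4.66, 5.09 and 5.20, and its groups did not overlap. In IGR37 the leading rises with separate groups were those of MRPL33 (0.95 ± 0.20), MRPL45 (0.92 ± 0.15), MRPS15 (0.80 ± 0.17), MRPL53 (0.70 ± 0.15) and MRPL32 (0.69 ± 0.15). MRPL45, a large subunit protein that lies at the tunnel exit and helps to hold the ribosome at the inner membrane, went from 5.92, 6.16 and 5.94 to 6.95, 6.45 and 7.36 in IGR37. In 501mel it went from 6.35, 6.78 and 6.71 to 7.20, 7.34 and 7.24, and the groups were apart in both lines. The row of its pseudogene MRPL45P2 changed by 0.57 and 0.79 and did not pass the test. MRPL45, MRPL53 and MRPS27 were the 3 members raised in both lines by siSCD_2. The 501mel rise of MRPL53 (0.50 ± 0.15) was lost without the first siCTR library (0.31, adjusted p = 0.126) or the first siSCD_2 library (0.39, adjusted p = 0.0757).

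Some members were called in opposite directions with the 2 SCD siRNAs, which were measured against different controls in tables normalised apart. In 501mel 4 members fell with siSCD_1 and rose with siSCD_2: MRPS18B, MRPS25, MRPS27 and MRPL52. In IGR37 there were 10 such members: MRPL20, MRPL24, MRPL32, MRPL33, MRPS6, MRPS7, MRPS27, MRPS28, MRPS33 and MRPS36. Of all genes, siSCD_1 lowered 22% in 501mel and 19.4% in IGR37, and siSCD_2 raised 18.3% and 23.2%. How many of all genes did both was not counted, so such opposite calls are not shown to be particular to the members. MRPS27 is the 1 member in both sets. With siSCD_1 its 501mel levels went from 8.30, 8.27 and 8.22 to 6.92, 6.81 and 7.10, and in IGR37 from 8.29, 8.04 and 8.31 to 7.50, 7.87 and 7.41 (a fall of 0.62 ± 0.11). With siSCD_2 they went from 7.96, 7.98 and 8.05 to 8.90, 8.70 and 8.61 in 501mel, and from 8.05, 8.38 and 8.22 to 8.98, 8.79 and 8.73 in IGR37 (a rise of 0.62 ± 0.09). The groups were apart in all 4 pairs, below the controls with one siRNA and above them with the other. The difference between the siRNAs was not tested. Single libraries ended at least 1 of the calls for MRPL24, MRPL32, MRPS6, MRPS28 and MRPS36 in IGR37 and for MRPL52, MRPS18B and MRPS25 in 501mel. Of these MRPS28 moved most, from a rise of 0.71 to a change of 0.28 (adjusted p = 0.314, limma) without the siSCD_2 library whose column is numbered 3 and to 1.08 without the second siSCD_2 library.

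Counted over the 6 comparisons, 11 members were lowered in none, 14 in 1, 9 in 2, 20 in 3, 11 in 4 and 10 in 5. On the other side, 50 were raised in none, 16 in 1, 8 in 2 and 1, MRPL45, in 3. 17 members were called in both directions, and 3 (MRPL30, MRPL54 and MRPS35) were never called. The 8 members raised but never lowered were MRPL2, MRPL34, MRPL45, MRPL50, MRPL53, MRPS15, MRPS22 and MRPS31. Counts of this kind over the 6 comparisons were not made for all genes. siSCD_1 lowered 32 members in both lines, 72.7% of its 501mel falls and 66.7% of its IGR37 falls, where over all genes the shared falls were 50.2% and 57.1%. siSCD_2 lowered 22 in both, or 71.0% and 84.6%, against 57.8% and 49.7% over all genes. In IGR37 the inhibitor and siSCD_1, which have no control library in common, both lowered 34 members, 91.9% of the inhibitor falls and 70.8% of the siSCD_1 falls, against 50.4% and 61.2% over all genes. The inhibitor and siSCD_2 both lowered 17 there, 45.9% and 65.4%, against 37.5% and 38.3%. Members were lowered more often than all genes to begin with, which by itself raises such shares. In IGR37 siSCD_1 lowered 64.0% of members and 19.4% of all genes, and siSCD_2 34.7% and 22.7%. The shares of shared falls were not compared by a test.

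**Figure D4:**
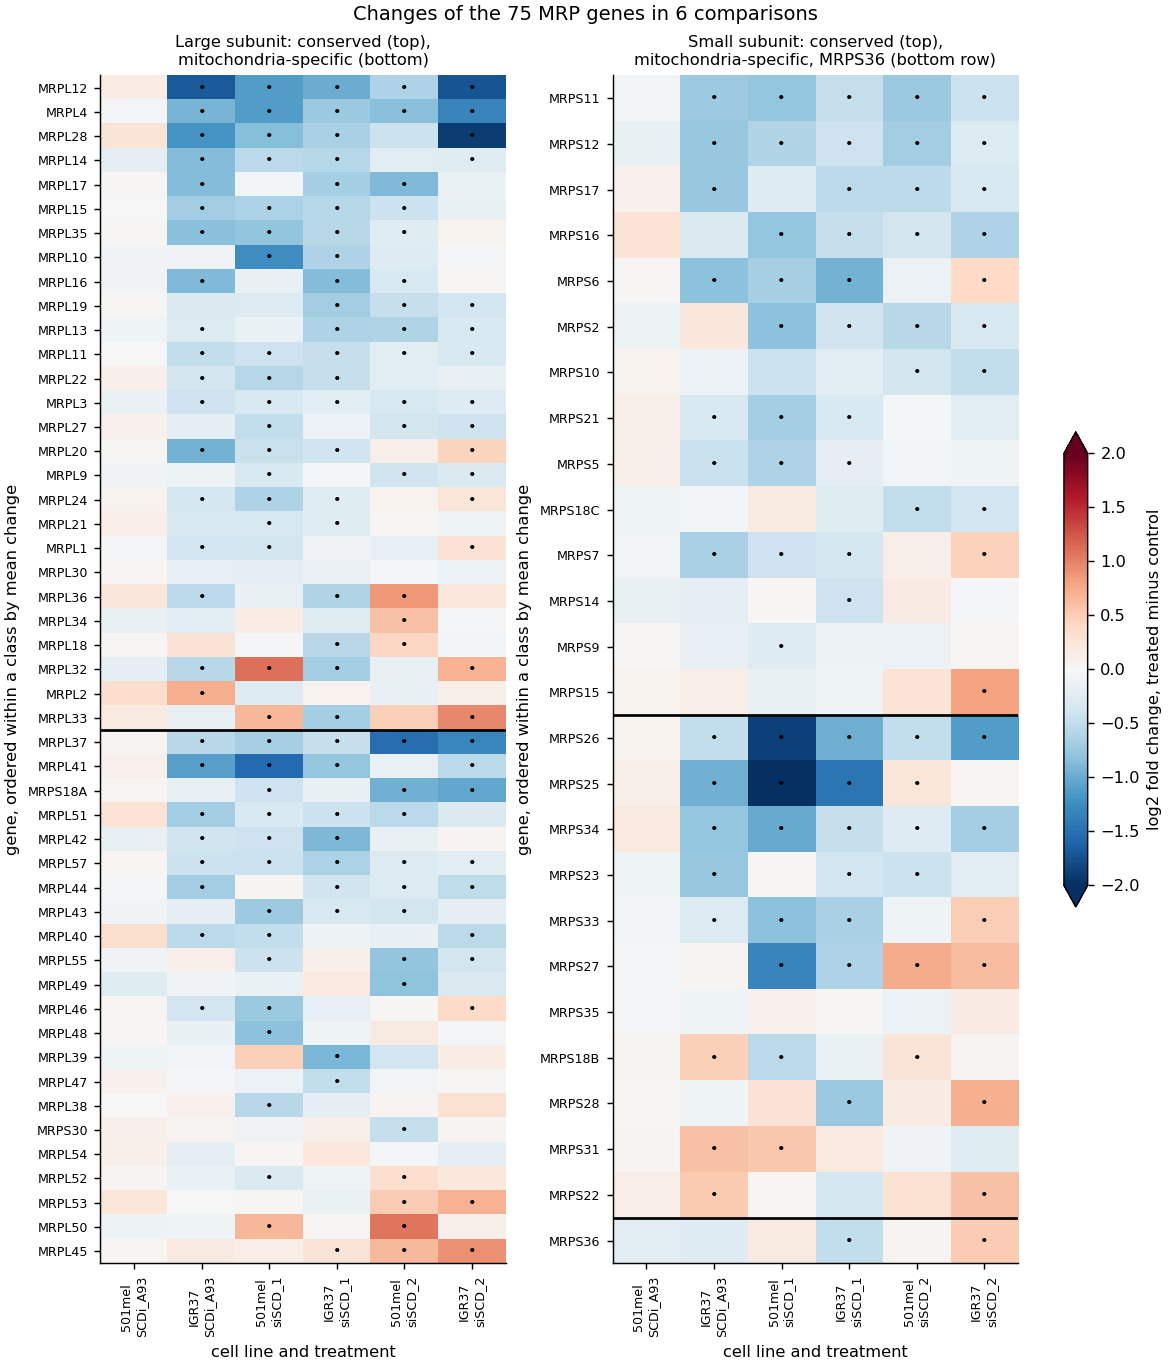
Log2 fold change of each member (rows) in the 6 comparisons of treated with control libraries (columns), with blue for lower and red for higher levels and dots where the adjusted p was under 0.05. Only SCDi_A93 in 501mel has 0 dots, and 10 members carry blue dots in the other 5 columns.

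Falls were called among proteins inherited from bacteria and among proteins added in mitochondria, in both subunits. Of 27 conserved large subunit proteins, 17 fell and 1 rose with the inhibitor in IGR37. 16 fell and 2 rose with siSCD_1 in 501mel, and 21 fell and 0 rose in IGR37. With siSCD_2 the counts were 12 and 3 in 501mel and 10 and 5 in IGR37. Of 22 mitochondria-specific large subunit proteins, 8 fell and 0 rose with the inhibitor in IGR37. With siSCD_1 13 fell and 1 rose in 501mel and 9 fell and 1 rose in IGR37, and with siSCD_2 the counts were 9 and 4, then 7 and 3.

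In the small subunit, 7 of 14 conserved proteins fell and 0 rose with the inhibitor in IGR37, 9 and 10 fell and 0 rose with siSCD_1 in 501mel and IGR37, and 7 fell in each line with siSCD_2, where 0 and 3 rose. Of 11 mitochondria-specific small subunit proteins, 5 fell and 3 rose with the inhibitor, 6 fell and 1 rose, then 7 fell and 0 rose, with siSCD_1, and 3 fell and 3 rose, then 2 fell and 4 rose, with siSCD_2. For this last class the siSCD_2 shares in IGR37 were 18.2% lowered and 36.4% raised, against 22.7% and 23.2% of all genes, and in 501mel 27.3% each way, against 19.5% and 18.3%. In each of the other classes, and in this one with siSCD_1 and the inhibitor, the share lowered was above that over all genes, from 31.8% to 77.8%. With the inhibitor in IGR37 the share raised among mitochondria-specific small subunit proteins, 27.3%, was also above the 20.9% of all genes. In 501mel the inhibitor called 0 members of each of these 4 classes.

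4 genes with an unusual place in the family were followed by name. MRPS18A and MRPS30 encode proteins found in the large subunit in current structures. MRPS18A fell with siSCD_2 from 7.23, 7.11 and 7.15 to 6.37, 6.01 and 6.24 in 501mel and from 6.01, 6.19 and 5.98 to 5.09, 5.22 and 4.77 in IGR37, by 0.96 ± 0.11 and 1.03 ± 0.11 (adjusted p = 8.87e-08 and 1.9e-08, limma), with no overlap. With the inhibitor in IGR37 it changed by -0.15. With siSCD_1 in 501mel it fell by 0.42 ± 0.14 (adjusted p = 0.0209), a call lost without any of 4 of the 6 libraries (-0.54 to -0.31 over all 6). Its last exon is overlapped by RSPH9 on the opposite strand. MRPS30 fell only with siSCD_2 in 501mel, from 5.97, 6.09 and 6.02 to 5.50, 5.64 and 5.51, by 0.48 ± 0.16 (adjusted p = 0.0181), and that call was lost without the second siCTR, the first siSCD_2 or the third siSCD_2 library (-0.45, -0.45 and -0.46).

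MRPS36 is now known as a subunit of the oxoglutarate dehydrogenase complex. In IGR37 it went from 5.89, 5.99 and 5.83 to 5.56, 4.84 and 5.83 with siSCD_1, where 1 treated library stood beside the lowest control. Its change there was -0.50 ± 0.18 (adjusted p = 0.0436, limma), lost without the second siSCD_1 library (-0.21, adjusted p = 0.208) or any siCTR_1 library (-0.53 to -0.46). With siSCD_2 it rose by 0.51 ± 0.17 (adjusted p = 0.0166), a call lost without the third siCTR library (0.44, adjusted p = 0.0719) or the library whose column is numbered 3 (0.36, adjusted p = 0.113). MRPL58, a peptidyl-tRNA hydrolase built into the large subunit, is listed under its older symbol ICT1, outside the rule. ICT1 rose by 0.52 ± 0.16 with the inhibitor and by 0.40 ± 0.16 with siSCD_2 in IGR37 (adjusted p = 0.00878 and 0.0392). Its inhibited IGR37 libraries, at 6.17, 5.81 and 5.96, stood above controls of 5.41, 5.41 and 5.54, while its siSCD_2 libraries overlapped their controls.

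Testing the difference between the lines itself, the effect of the inhibitor was lower in IGR37 than in 501mel for 32 members and higher for 1, against 15.3% and 12.3% of all genes. The largest differences were those of MRPL12 (-1.83 ± 0.32, adjusted p = 0.000114, limma), MRPL28 (-1.44 ± 0.47, adjusted p = 0.0242) and MRPL41 (-1.17 ± 0.18, adjusted p = 2.68e-05). MRPS18B, a small subunit protein, had the 1 difference above 0, at 0.43 ± 0.11 (adjusted p = 0.00478). In 501mel it stayed at 9.31, 9.28 and 9.28 with DMSO and 9.30, 9.42 and 9.30 with the inhibitor. In IGR37 it went from 7.74, 7.75 and 7.84 to 8.30, 8.18 and 8.27, still under every 501mel library. The MRPL28 difference was lost without any 1 of 4 of the 12 libraries, the first 501mel DMSO, the first 501mel SCDi_A93, the third IGR37 DMSO and the third IGR37 SCDi_A93 libraries (-1.39 to -1.29, adjusted p of at most 0.0646).

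For siSCD_1 the difference between lines was below 0 for 13 members and above 0 for 13, against 10.3% and 10% of all genes. Centring each library on its median gene shifted all genes by 0.11 and made the counts 6 below and 19 above. Without single libraries the count below 0 ranged from 3 to 11, with 8 or fewer without any 1 library of 501mel siSCD_1 or of IGR37 siCTR_1, the first 501mel siCTR_1 library, or the first or second IGR37 siSCD_1 library. All-gene shares were not counted with centring or without single libraries. MRPL32 and MRPL33, bacterial-type large subunit proteins, were called in opposite directions in the lines. MRPL32 is cut to its mature form by a protease of the inner membrane before it joins the ribosome. Its 501mel levels rose from 4.46, 5.23 and 5.25 to 6.12, 6.12 and 6.01, and its IGR37 levels went from 6.04, 5.84 and 5.76 to 5.31, 4.69 and 5.59. The difference was -1.79 ± 0.30 (adjusted p = 0.000828, limma). The IGR37 fall, 0.68 ± 0.21 (adjusted p = 0.018), was lost without the second siSCD_1 library (-0.43, adjusted p = 0.0806) or the first siCTR_1 library (-0.61, adjusted p = 0.0746).

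MRPL33 went from 6.85, 7.23 and 7.30 to 7.70, 7.82 and 7.86 in 501mel and from 6.89, 6.90 and 6.87 to 6.54, 5.71 and 6.38 in IGR37, a difference of -1.35 ± 0.23 (adjusted p = 0.000913, limma). Both pairs of groups were apart. Its IGR37 fall of 0.68 was -0.43 without the second siSCD_1 library, with an adjusted p of 0.00574. That library was the lowest of its group for MRPL32, MRPL33 and MRPS36. MRPL39, a large subunit protein that bacteria lack, gave a difference of -1.40 ± 0.44 (adjusted p = 0.0361), lost without any of 8 of the 12 libraries (-1.78 to -0.95 over all 12). Differences above 0 were led by MRPS26 (0.90 ± 0.24), MRPL41 (0.79 ± 0.17) and MRPL48 (0.73 ± 0.21), whose changes were lower in 501mel. That of MRPL48 was lost without any of 4 of the 12 libraries (0.61 to 0.89 over all 12).

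For siSCD_2, 7 members had a difference below 0 and 7 above, against 9.47% and 11.6% of all genes, shares of 9.33% each. Centring on the median gene made these 7 and 3, and all-gene shares were not counted with centring or without single libraries. The count above 0 ranged from 3 to 17 without single libraries, with 17 without the second IGR37 siSCD_2 library, 3 without the third 501mel or first IGR37 siCTR library, and 4 without the second 501mel siCTR library or the second or the third 501mel siSCD_2 library. The count below 0 was 3 without the first 501mel siSCD_2 library and 4 without the first or the third 501mel or the third IGR37 siCTR library. The lowest were those of MRPL28 (-1.47 ± 0.47), MRPL12 (-1.11 ± 0.32) and MRPL50 (-0.97 ± 0.26, adjusted p = 0.01, limma), and the highest those of MRPL32 (0.83 ± 0.22), MRPL17 (0.76 ± 0.13) and MRPS33 (0.58 ± 0.14). MRPL50 rose in 501mel while its IGR37 libraries, at 4.30, 4.18 and 4.28 with siCTR and 4.28, 4.37 and 4.40 with siSCD_2, overlapped. The MRPL28 difference was lost without any of 6 of the 12 libraries, and was -0.84 (adjusted p = 0.0724) without the library whose column is numbered 3. That of MRPL12 was -0.94 (adjusted p = 0.052) without the third IGR37 siCTR library.

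**Figure D5:**
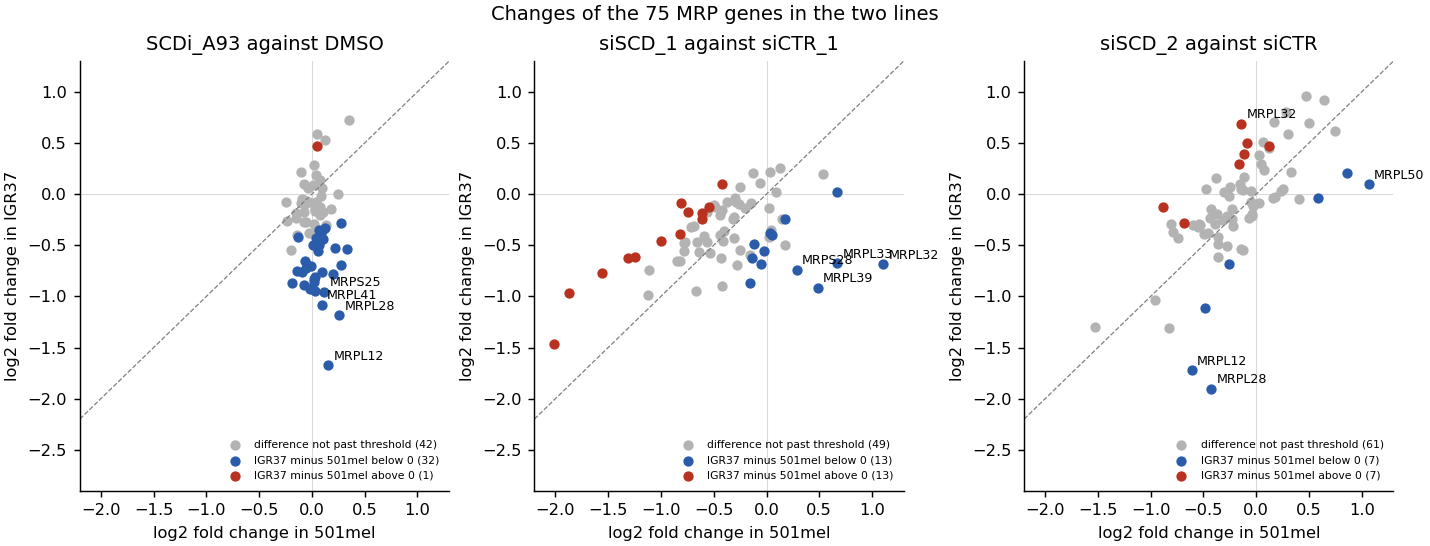
Change of each member in IGR37 (vertical axis, log2 fold change) against its change in 501mel (horizontal axis), one panel per agent, in blue or red where the difference IGR37 minus 501mel was below or above 0 with an adjusted p under 0.05, grey elsewhere, with the members of largest difference labelled and a dashed line where both changes are equal. With SCDi_A93 the points stand in a column near 0 on the 501mel axis and reach -1.67 on the IGR37 axis, while both siRNAs spread the points along both axes.

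Without any SCD agent, IGR37 had lower levels than 501mel of 37 to 41 of the 75 members. With DMSO 41 members were lower and 11 higher, against 29.7% and 31.1% of all genes, and with siCTR 40 and 10, against 30.4% and 32.1%. With siCTR_1 37 were lower and 11 higher, against 29.2% and 31.1%. The same direction was called under all 3 controls for 28 members lower and 3 higher, and 42 lay below 0 in all 3. Calls shared by all 3 controls were not counted over all genes. The median difference was -0.34, -0.31 and -0.26. The 3 higher ones were MRPL37, MRPS33 and MRPS36, and MRPS36 differed by 0.63, 0.70 and 1.05. With siCTR the 10 higher members were 5 without the second IGR37 library. Under siCTR the MRPL37 call was lost without the second IGR37 library (0.27, adjusted p = 0.0674, limma), and the MRPS33 call without that library, the first IGR37 library or the third 501mel library (0.25 to 0.26).

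The lowest differences with DMSO were those of MRPL50 (-1.54), MRPS18B (-1.51) and MRPL33 (-1.42), with siCTR those of MRPL2 (-1.58), MRPL49 (-1.38) and MRPL1 (-1.35), and with siCTR_1 those of MRPL49 (-1.46), MRPL2 (-1.46), MRPS18A (-1.44) and MRPS18B (-1.44). MRPL2 stood at 6.40, 6.52 and 6.34 in 501mel and 5.0, 4.86 and 5.19 in IGR37 with DMSO, more than 1 log2 unit apart. The highest differences were those of MRPL28 (0.81), MRPL41 (0.77) and MRPL4 (0.72) with DMSO, of MRPS36, MRPL4 (0.62) and MRPL41 (0.58) with siCTR, and of MRPS36, MRPS28 (0.99) and MRPL32 (0.90) with siCTR_1. MRPL50 was an unsteady case, since its levels of 5.44, 4.83 and 5.09 in 501mel with DMSO were above those of 3.68, 3.99 and 4.08 with siCTR, and its line difference was 0.34 with siCTR (not past the test). The MRPL28 difference with DMSO was lost without any of 5 of the 6 libraries, and was 0.67 (adjusted p = 0.137, limma) without the first 501mel library. 4 members, MRPL17, MRPL18, MRPL32 and MRPS27, were called in opposite directions under different controls. The calls of MRPL18 and MRPL32 held under every setting run. MRPS27 was higher by 0.22 under siCTR, a call lost without the first or second 501mel library or the second or the third IGR37 library (0.14 to 0.22, adjusted p of at most 0.227, limma), with centring and without a variance trend, and lower by 0.29 under DMSO, a call lost without the second IGR37 library (-0.24, adjusted p = 0.0517). MRPL17 was lower by 0.66 under siCTR in every setting. Its higher levels under DMSO (0.26) and siCTR_1 (0.26) were lost with centring, without the second or the third 501mel library of either control (0.20 to 0.24), and without the first IGR37 siCTR_1 library (0.22).

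MRPS11 and MRPL46 start head to head on chromosome 15, at 88467453 and 88467419, and did not share all their calls. MRPL46, a large subunit protein without a bacterial counterpart, fell by 0.39 ± 0.11 with the inhibitor in IGR37 and by 0.75 ± 0.10 with siSCD_1 in 501mel. It changed by -0.17 with siSCD_1 in IGR37 and by 0.02 with siSCD_2 in 501mel, neither past the test, and rose by 0.38 ± 0.11 with siSCD_2 in IGR37 (adjusted p = 0.00769, limma), where MRPS11 fell by 0.43 ± 0.11. The inhibitor fall of MRPL46 was lost without the third DMSO library (-0.29, adjusted p = 0.0631), and its rise without the third siCTR library (0.29, adjusted p = 0.0615) or the library whose column is numbered 3 (0.30, adjusted p = 0.0503). The difference between the 2 genes was not tested. In all, 17 members have a coding gene that starts within 1000 bases on the other strand and runs away from them.

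Other genes of mitochondrial translation were called in both directions, in several lists at about the share over all genes. In the order of the inhibitor in IGR37, siSCD_1 in 501mel and IGR37 and siSCD_2 in 501mel and IGR37, those shares were 23.1%, 22%, 19.4%, 19.5% and 22.7% lowered and 20.9%, 20.9%, 16.7%, 18.3% and 23.2% raised. Of 6 measured ribosomal proteins with other symbols, 3 fell and 1 rose with the inhibitor in IGR37, where CHCHD1, a small subunit protein, fell by 0.76 ± 0.12. With siSCD_1 2 fell in 501mel, led by GADD45GIP1 (0.85 ± 0.09), a large subunit protein, and 3 fell in IGR37, led by CHCHD1 (0.92 ± 0.17). With siSCD_2 1 fell and 1 rose in 501mel, AURKAIP1 (-0.46 ± 0.13) and PTCD3 (0.27 ± 0.09), both of the small subunit. In IGR37 2 fell and 3 rose, led by GADD45GIP1 (-0.61 ± 0.11) and PTCD3 (0.41 ± 0.09).

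Of 19 translation factors and RNA partners, 4 fell and 4 rose with the inhibitor in IGR37, led by TRMU (-0.96), a tRNA-modifying enzyme, and C12orf65 (0.94), a ribosome rescue factor. With siSCD_1 9 fell and 2 rose in 501mel, led by the membrane insertase OXA1L (-0.97) and the elongation factor TSFM (0.97). In IGR37 7 fell and 1 rose, the RNA stabiliser SLIRP (-0.63) leading and C12orf65 (0.70) the rise. With siSCD_2 5 fell and 4 rose, then 4 and 4. The shares lowered, in that order, were 21.1%, 47.4%, 36.8%, 26.3% and 21.1%, and those raised ran from 5.26% to 21.1%. The inhibitor and siSCD_2 in IGR37 gave about the shares of all genes. The tRNA-modifying GTPase GTPBP3 led the falls in both lines (-1.25 and -1.24), and the initiation factor MTIF3 (0.82) and TSFM (0.80) led the rises.

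Of 21 measured assembly and rRNA modification factors, 5 fell and 4 rose with the inhibitor in IGR37, 4 and 3, then 8 and 2 with siSCD_1, and 3 and 4, then 5 and 2 with siSCD_2. The share lowered was 38.1% with siSCD_1 in IGR37 and 14.3% to 23.8% in the other 4. MALSU1, which keeps the immature large subunit from joining the small one, fell with siSCD_1 from 6.60, 6.76 and 6.68 to 4.89, 5.03 and 4.85 in 501mel (1.76 ± 0.10) and by 1.54 ± 0.10 in IGR37 (adjusted p = 1.97e-09 and 1.21e-08, limma), with separate groups. TFB1M, the small subunit rRNA methyltransferase, led the rises in 4 comparisons (0.92 with the inhibitor, 1.17 and 0.96 with siSCD_1, 0.67 with siSCD_2 in IGR37) and MTG2 (0.83) in the other. MRM1, a large subunit rRNA methyltransferase, led the falls with the inhibitor (-1.32) and siSCD_2 (-0.85) in IGR37, and MPV17L2 (-0.89) with siSCD_2 in 501mel.

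Of 11 measured genes for mitochondrial DNA replication and transcription, 3 fell and 1 rose with the inhibitor in IGR37, 2 and 2, then 2 and 0 with siSCD_1, and 1 and 0, then 1 and 4 with siSCD_2. The share lowered was 9.09% to 27.3%, on either side of that over all genes. The leading calls were MTERF1 (-1.15) and TOP1MT (0.43) with the inhibitor, the RNA polymerase POLRMT (-0.73) and POLG2 (1.64) with siSCD_1 in 501mel and TEFM (-0.75) in IGR37, and TOP1MT (-0.25 and -0.44) and MTERF1 (0.99) with siSCD_2.

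Of 9 nuclear regulators of mitochondrial genes, 1 fell and 1 rose with the inhibitor in IGR37, 4 and 2, then 4 and 0 with siSCD_1, and 2 and 1, then 1 and 2 with siSCD_2. The share lowered was 44.4% in both lines with siSCD_1 and 11.1% to 22.2% in the other 3. PPARGC1A fell with siSCD_2 in IGR37 from 4.84, 5.04 and 4.76 to 2.55, 1.87 and 2.57, by 2.55 ± 0.16 (adjusted p = 1.89e-12, limma), the groups being far apart. It fell by 1.24 ± 0.14 with siSCD_1 in 501mel and rose by 0.44 ± 0.16 with the inhibitor in IGR37. Any link of PPARGC1A to the member changes was not tested. Other leading calls were those of PPRC1 (-0.42 with the inhibitor in IGR37, -0.61 with siSCD_2 in 501mel), MYC (1.79 with siSCD_1 in 501mel), PPARGC1B (-0.93 with siSCD_1 in IGR37), YY1 (0.32 with siSCD_2 in 501mel) and GABPA (0.55 with siSCD_2 in IGR37).

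Of 12 proteases and chaperones, 6 fell and 5 rose with the inhibitor in IGR37, 4 and 1, then 2 and 2 with siSCD_1, and 4 and 1, then 3 and 4 with siSCD_2. The share lowered was 50%, 33.3%, 16.7%, 33.3% and 25%. The cochaperonin HSPE1 led the falls with the inhibitor (-1.18) and siSCD_1 (-0.85 and -0.86), its partner HSPD1 (-0.51) with siSCD_2 in 501mel and the protease LONP1 (-0.57) in IGR37. The rises were led by LONP1 (0.64) with the inhibitor, HTRA2 (0.95) and ATF5 (0.65) with siSCD_1 in 501mel and IGR37, and AFG3L2 (0.47) and HTRA2 (0.65) with siSCD_2. In 501mel the inhibitor called 0 genes of each of these lists. The melanocyte markers fell for 6 of 7 with the inhibitor in IGR37, 7 and 3 with siSCD_1 and 5 and 6 with siSCD_2 in 501mel and IGR37, and 0 with the inhibitor in 501mel, shares of 42.9% to 100% where falls were called. TYR, the enzyme that starts melanin synthesis, was the 1 marker that rose, by 0.56 ± 0.09 and 0.82 ± 0.09 with siSCD_2 in 501mel and IGR37 (adjusted p = 2.33e-05 and 5.56e-08, limma).

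Reads of some members could belong to another locus. All 75 matched the GENCODE 29 annotation on GRCh38, spread over 21 chromosomes. 34 members have at least 1 named pseudogene, 75 copies in all, and in 20 the last exon, where the 3′ tags fall, overlaps another gene, on the same strand in 7 and on the opposite strand in 13. Among the 31 members with neither, 14 fell and 1 rose with the inhibitor in IGR37. With siSCD_1 17 fell and 1 rose in 501mel and 21 fell and 0 rose in IGR37. With siSCD_2 12 fell and 5 rose, then 11 fell and 5 rose. Of all genes, 23.1%, 22%, 19.4%, 19.5% and 22.7% were lowered in these comparisons, in the same order. The shares raised were 20.9%, 20.9%, 16.7%, 18.3% and 23.2%. The part of reads from other loci in the member results was not tested. MRPL12 (AC139530.2, same strand), MRPL4, MRPL37, MRPS11, MRPS18A and MRPS25 (NR2C2, opposite strand) have an overlapping gene, and MRPS26, MRPS34, MRPL28 and MRPL41 have neither an overlap nor a named pseudogene.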

How the data were processed

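The libraries were QuantSeq Forward libraries of 3′ transcript ends, per the labels' protocols. STAR, edgeR and hg38 are named in the submitters' processing notes, and versions, filters and strand use are not given in the sources used here. The log2 values came in 2 tables that the authors normalised one by one and deposited. From the values, these are log2 CPM with a prior of 0.25 reads: whole reads were recovered for 100% of values within 0.01 reads. The 66 and 60 spike-in rows and 1 Mitf-FLAG row were left out, and the spike-ins took 2.43 to 7.21% of reads. At these depths 3 reads equal 0.388 to 1.19 CPM. Changes were tested on the deposited log2 values with limma 3.58.1 in R 4.3.3 (empirical Bayes with a variance trend, two-sided), all libraries of a table sharing the spread. Benjamini-Hochberg adjustment ran over all genes, with a threshold of 0.05. A check on simulated data gave unchanged genes the same spread in every group, so it cannot vouch for groups of unequal spread. The difference between lines was an interaction contrast. Labels number the IGR37 siSCD_2 libraries 1, 2 and 13 and the columns 1, 2 and 3, so the third column was assigned by group only.

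The members and lists were chosen with earlier results of these data known. Members named with values were MRPL12, MRPS12, MRPL58, MRPS18A, MRPS30 and MRPS36, the 5 largest rises and falls per comparison with separate groups, members called the same way in at least 5 comparisons or in opposite directions in the lines, the 3 largest differences each way between lines, and the leading calls of each list. Others were named after their values were seen. Alternatives were voom on recovered reads, a prior of 2 reads, no variance trend, only the compared groups, centring on the median gene, a mean log2 of at least 3, a replicate block and leaving out each library. The mitochondrially encoded mRNAs, MRPL23 and MRPS24 were not analysed here.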

Additional observations from a re-analysis of the deposited data

Results flagged for a closer look

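The difference between the lines in the effect of an agent was tested with an interaction term (limma, adjusted p under 0.05 over all genes). The effect of SCDi_A93 was lower in IGR37 than in 501mel for 32 of the 75 members and higher for 1, or 42.7% and 1.33%, against 15.3% and 12.3% of all genes. The effect of siSCD_1 was lower in IGR37 for 13 members and higher for 13, or 17.3% each, against 10.3% and 10%. The effect of siSCD_2 was lower in IGR37 for 7 members and higher for 7, or 9.33% each, at or under the 9.47% and 11.6% of all genes. Of the 33, 26 and 14 members with such a difference, 28, 10 and 4 kept it under every setting run.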

How the results depend on the processing

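Nothing reversed direction in any setting run. Some counts of members moved by over 1.5 times, and ranges that moved less are given beside them. Shares of all genes called were counted in the main fit only, so the counts below have no such share beside them. Without single libraries, the siSCD_1 differences between lines below 0 stayed within 1.5 times in 3 of 12 fits. For the siSCD_2 differences above 0 it was 6 of 12. The 1 rise with siSCD_1 in IGR37 became 0 without a variance trend, 0 with the replicate block and 0 or 1 without single libraries. For siSCD_2 in IGR37, using only the groups compared left 13 falls and 8 rises, and leaving out single libraries gave 20 to 26 falls and 12 to 19 rises. siSCD_2 in 501mel gave 6 to 9 rises and 23 to 26 falls without single libraries.

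For the inhibitor, differences between lines above 0 numbered 3 with only the groups compared and 2 with a mean log2 of at least 3. For siSCD_1, differences below 0 numbered 4 without a variance trend, 8 with the replicate block, 6 with centring on the median gene and 3 to 11 without single libraries, and those above 0 numbered 7 without a variance trend. Their median was 0.24 with centring. For siSCD_2, differences below 0 numbered 1 with only the groups compared, 4 with the replicate block and 3 to 8 without single libraries. Those above 0 numbered 4, 3, 4 and 3 without a variance trend, with only the groups compared, with the replicate block and with centring, and 3 to 17 without single libraries. Higher levels in IGR37 with siCTR numbered 5 to 9 without single libraries. With only the groups compared fewer libraries give the spread; for the others the cause was not tested.

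Of 444 calls of single members, 52 were lost without a variance trend, 50 with only the groups compared, 32 with the replicate block, 25 with centring, 5 with a prior of 2 reads, 2 with voom and 0 with the filter. Whether the replicate numbers pair the samples is not settled here, and the main fit did not pair them. The correlation of deviations in 17 same-numbered pairs ran from -0.17 to 0.22, with 4 over 0.1. All members had enough reads that depth did not put any near the floor; the fewest were 19 reads, for MRPL39 in 1 library.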

Other observations

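Between the lower and upper quartile, the 75 members ran from -0.67 to -0.08 with the inhibitor in IGR37, from -0.66 to -0.06 and from -0.62 to -0.14 with siSCD_1 in 501mel and IGR37, and from -0.43 to 0.07 and from -0.31 to 0.19 with siSCD_2. With the inhibitor in 501mel they ran from -0.07 to 0.09, where all genes ran from -0.15 to 0.18. The spread was not compared by a test.

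16 members were lowered in all 3 IGR37 comparisons: the 10 named in the report and MRPL13, MRPL14, MRPL28, MRPL41, MRPL44 and MRPS17. How many of all genes were lowered in all 3 was not counted. MRPL50 was the 1 member raised by both SCD siRNAs in 501mel and MRPL45 the 1 raised by both in IGR37. Both siRNAs lowered 20 members in 501mel and 19 in IGR37, where they were set against different controls. In 501mel that was 45.5% of the siSCD_1 falls and 64.5% of the siSCD_2 falls, against 36.1% and 40.0% over all genes. In IGR37 it was 39.6% and 73.1%, against 46.5% and 39.4%. No test compared these shares.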
